A study of Mus musculus with 15 samples.

Results

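The axoneme genes described here were chosen by their names alone: every gene in the count tables whose symbol starts with Cfap, Dnah, Drc, Rsph or Tekt followed by a digit, leaving out the symbols of antisense or pseudogene transcripts that end in os or ps. The rule found 64 of the 32285 genes, namely 33 Cfap, 15 Dnah, 3 Drc, 8 Rsph and 5 Tekt genes, and all 64 were detected. They were followed through germ cell stages of mouse testis in single-cell RNA-seq libraries made from whole dissociated testes of DBA/2J males. In group T, males had received JQ1, an inhibitor of bromodomain proteins including the testis-specific BRDT, at 50 mg/kg daily for 3 wk by intraperitoneal injection and were taken directly afterward at 10 wk of age. Group R received the same course and was taken 6 wk after the last dose at 16 wk of age. The males of VC-T (10 wk) and VC-R (16 wk) received only the vehicle, DMSO in (2-hydroxypropyl)-β-cyclodextrin, and were matched in time to T and to R. An untreated group (UC, 15 wk) was the control of both main comparisons, which therefore share their control libraries. Each group held 3 libraries, each from 1 testis of 1 mouse. T and UC differ in age as well as in treatment, and these cannot be told apart in that comparison.

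The axoneme is the microtubule core of the sperm tail, a ring of doublet microtubules around a central pair. Dynein heavy chains (Dnah genes) are the motors, arranged in outer and inner arms on each doublet. Radial spokes (Rsph genes) pass signals from the central pair to the arms, the nexin-dynein regulatory complex (Drc genes) ties neighboring doublets together, and tektins (Tekt genes) are filaments inside the doublets. The Cfap genes, named for cilia and flagella associated proteins, form a mixed group that includes central pair projections, tethers of the inner arms, proteins lining the inside of the microtubules and factors that assemble the arms. Tail assembly begins in round spermatids, after meiosis.

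Libraries held between 9673587 and 98724982 UMIs (unique molecular identifiers, each standing for 1 captured transcript), and 72362 cells were kept. Cells were clustered without using the axoneme genes, and clusters were named from fixed markers: 15000 cells were spermatocyte-like, 22822 spermatid-like, 26799 spermatozoa-like and 1723 spermatogonia-like. In UC, all markers of spermatogonia, spermatids and spermatozoa and 6 of the 7 markers of spermatocytes were highest in the class they mark. The same markers had named the clusters, so this is no independent check of the names. T held 20 spermatozoa-like cells in all against 6080 in UC, so T could not be tested in that class. Library VC-T 1 stood apart from VC-T 2 and 3, with 1 spermatozoa-like cell against 1035 and 1667, and the study left it out of its own testing. Results against VC-T are therefore given without it, and with it where that matters. Levels are given as CPM, the UMIs of a gene per 1000000 UMIs of a cell class in a library. Levels of different genes are given per kilobase of exon, with the UMI totals beside them. The libraries were made with a 3′ kit, in which UMIs count transcripts and need not rise with their length. The totals are therefore the more direct measure. Fold changes are from sums per library that were rescaled by TMM, which lowered the log2 fold changes of T against UC by 0.27 in spermatid-like and 0.13 in spermatocyte-like cells and those of R against UC by 0.21 in spermatid-like cells, relative to these levels.

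The summed level of the axoneme genes was highest in spermatocyte-like cells, and the genes differed in when they peaked. In UC the 64 genes together made up 17304 ± 1240 CPM (SD, n = 3) of spermatocyte-like cells, 10316 ± 475 of spermatid-like cells, 2496 ± 247 of spermatozoa-like cells and 2003 ± 538 of spermatogonia-like cells. Most of the difference between the first 2 sums lay in Rsph1 and Dnah8, without which they were 10508 ± 448 and 9224 ± 309. By class, 39 genes had their highest level in spermatocyte-like cells, 23 in spermatid-like, 1 in spermatozoa-like and 1 in spermatogonia-like cells. The class was the same in VC-R for 62 of the 64. These are descriptions, since the classes come from the same cells. When germ cells were ranked by pseudotime and cut into 20 equal bins, of which bins 1 to 4 were spermatocyte-like, 6 to 11 spermatid-like and 13 to 19 spermatozoa-like, 28 genes peaked in bins 0 to 4, 32 in bins 5 to 9 and 4 in bins 10 to 19 in VC-R. In UC, 54 of the 64 genes peaked within 1 bin of this position.

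**Figure D1:**
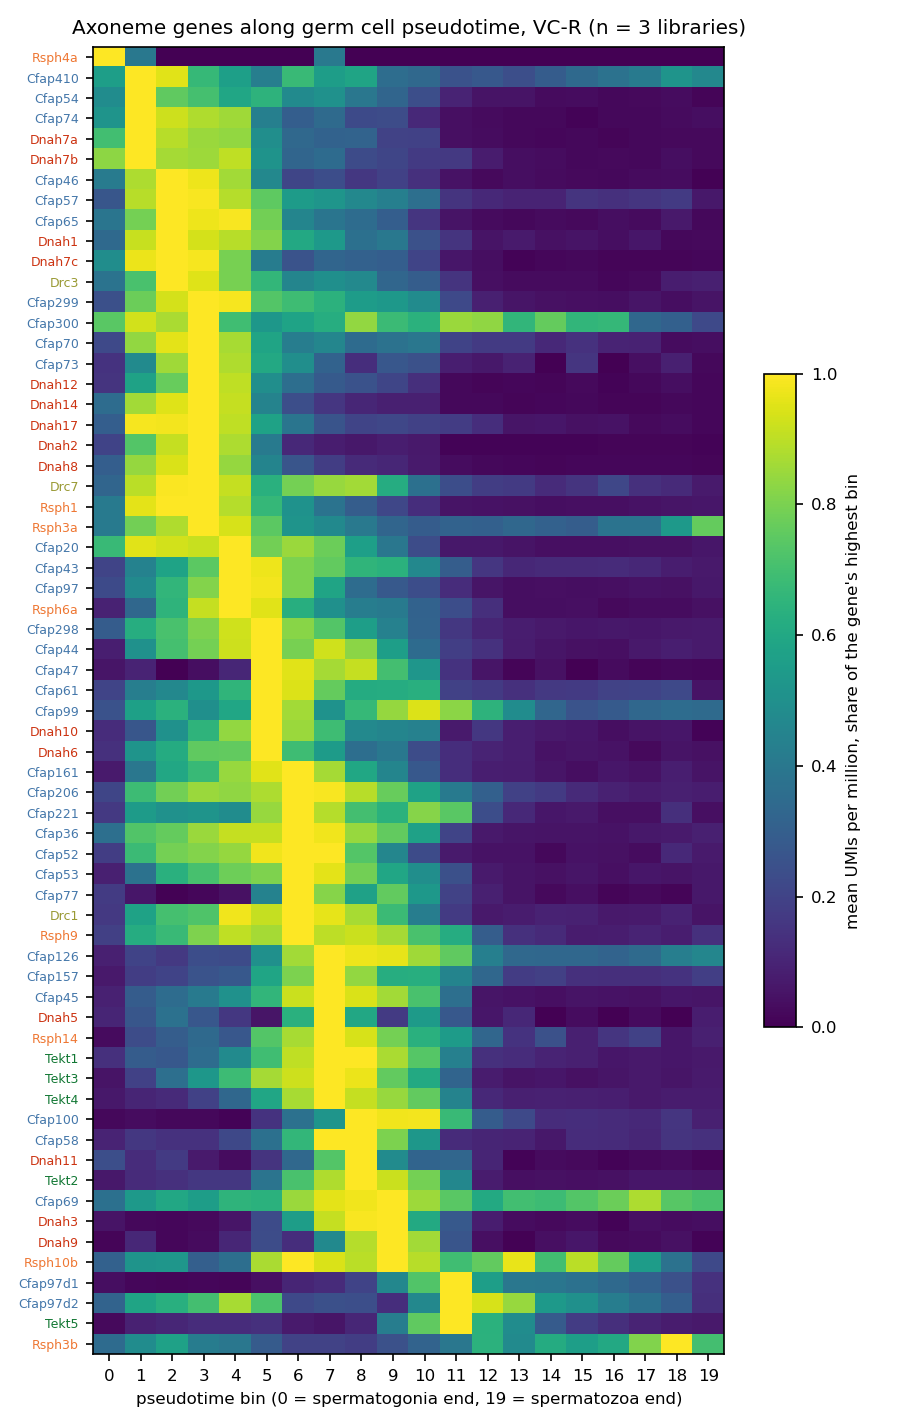
Mean level of each of the 64 axoneme genes (rows, colored by family) in 20 pseudotime bins (columns) over the 3 VC-R libraries, as a share of the gene's highest bin. The rows run from genes highest in bins 0 to 4 (28 genes) through bins 5 to 9 (32 genes) to the 4 genes highest in bin 11 or 18.

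Most of the motors peaked early, 9 of the 15 in bins 0 to 4 of VC-R. Of the 15 dynein heavy chain genes, 11 were highest in spermatocyte-like cells and 4 in spermatid-like cells, in UC as in VC-R. Dnah8, an outer arm heavy chain of sperm, had levels of 2505, 3373 and 3024 CPM in spermatocyte-like cells of UC 1 to 3 and of 287, 260 and 349 in spermatid-like cells. Its transcript was thus lower in every UC library at the stage in which the tail is built than in the stage before. Dnah7a, Dnah7b and Dnah7c, closely related inner arm heavy chains whose reads could be shared among them, were highest in bins 1 and 2 in VC-R and in bin 4 in UC. Dnah3, Dnah5, Dnah9 and Dnah11 formed the later group, and Dnah3, an inner arm heavy chain, had 5.72 CPM in spermatocyte-like and 151 ± 18.0 in spermatid-like cells of UC.

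Some outer arm and spoke head genes of sperm have relatives known mainly from motile cilia, and 3 sets, chosen after their values were seen, are described here. Over all kept cells and per kilobase of exon, Dnah8 had 15055 UMIs and its ciliary relative Dnah5 had 56.1, from 403775 and 877 UMIs in all. Dnah17, another outer arm chain of sperm, had 2146 UMIs per kilobase against 171 for Dnah9 and 170 for Dnah11, from 34611, 2729 and 2459 UMIs. Rsph6a, a spoke head protein of sperm, had 13843 against 25.5 for its ciliary relative Rsph4a, from 34552 and 93 UMIs.

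The radial spoke and regulatory complex genes were mixed. Rsph1, a spoke head protein, had 3412, 4084 and 3990 CPM in spermatocyte-like cells of UC 1 to 3 and 796, 671 and 913 in spermatid-like cells. All 3 Drc genes were highest in spermatocyte-like cells, although Drc1, at the base of the regulatory complex, differed little between the classes, at 139 ± 16.6 in spermatocyte-like and 117 ± 12.0 in spermatid-like cells of UC. Rsph3b, a spoke stalk gene nearly identical to Rsph3a, was the only member highest in spermatozoa-like cells, at 30.2 ± 3.54 CPM in UC.

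The tektins came later. All 5 were highest in spermatid-like cells in UC and VC-R. Tekt2 had 689, 708 and 713 CPM in spermatid-like cells of UC 1 to 3 and 161 ± 35.3 in spermatocyte-like cells, and Tekt4 had 647 ± 35.2 and 191 ± 60.2. Tekt1, Tekt3 and Tekt4 peaked in bin 7 and Tekt2 in bin 8. Tekt5 peaked in bin 11, at the end of the spermatid-like cells. Of the 33 Cfap genes, 22 were highest in spermatocyte-like and 11 in spermatid-like cells of UC, among them Cfap36 at 1363 ± 86.3 and 1082 ± 96.1, Cfap298, which takes part in arm assembly, at 721 ± 52.0 and 402, and Cfap97 at 725 ± 67.7 and 270. Cfap97d1, needed to keep the axoneme of mouse sperm intact, and its relative Cfap97d2 peaked in bin 11 with Tekt5 in VC-R. The peak of Cfap97d2 was shallow, at 24.1 CPM in bin 11 and 20.95 in bin 4 of VC-R, and it lay in bin 12 in UC. The summed level of Cfap97d2 was a little higher in spermatocyte-like than in spermatid-like cells of UC, at 16.4 ± 2.94 and 12.7 ± 2.11.

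UMIs of these genes in somatic cells set a floor under these levels, and their source was not tested. The 64 genes summed to 1978 ± 246 CPM in Leydig-like cells of R (n = 3) and to 3284 ± 216 in macrophage-like cells, cell types that build no flagellum. Rsph1 alone stood at 193 ± 46.1 in Leydig-like and 399 ± 84.1 in macrophage-like cells of R. The summed level in spermatogonia-like and spermatozoa-like cells of UC lay in this range, so levels there could not be told apart from background for the abundant genes. No UC library had enough cells of these types to give its own floor. Dnah2 differed between these cell types, with 201 ± 114 in Leydig-like cells of R against 9.51 ± 16.5 in macrophage-like cells. Its highest germ cell bin in UC was at 174 CPM.

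The first question was whether axoneme transcripts in spermatocytes differ directly after the JQ1 course. In spermatocyte-like cells, 62 of the 64 genes passed the filter on low counts, and none was called changed in T against UC at an adjusted p under 0.05 and a log2 fold change beyond 1 (edgeR's quasi-likelihood test, Benjamini-Hochberg over all genes). The background was 1.35% of the 12079 genes tested. At an unadjusted p under 0.05 there were 9 members, 14.5% of those tested against 21.8% of all genes, and DESeq2 also called 0. Against VC-T 2 and 3 one member was called, Cfap100 at 1.76, with a background of 4.82%. The lowest log2 fold change, -1.32 for Cfap97d1 (adjusted p = 0.35), rested on UC 1, with 75.3 CPM against 10.3 and 15.5 in UC 2 and 3 and between 11.0 and 23.0 in T. The summed level was 17165 ± 246 in T and 17304 ± 1240 in UC, and the median log2 fold change over the members was -0.07, against -0.01 over all genes. Dnah8 stood at 2826, 3001 and 3120 CPM in T 1 to 3, inside the range of UC. Rsph1 stood at 3343, 3507 and 3384 in T, where UC 1 was at 3412 and UC 2 and 3 at 4084 and 3990, with a log2 fold change of -0.29 and an adjusted p of 0.07. When 256 cells per library were drawn to the same spread over pseudotime, Rsph1 passed the p threshold at -0.34 ± 0.05 (adjusted p = 0.000258). In those cells Cfap53 was also lower and Tekt4 (0.57) and Rsph3a (0.32) were higher, 2 members in each direction of 57, or 3.51%, where 5.35% of all genes were lower and 4.91% higher.

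A pair of Cfap genes passed the p threshold at smaller folds. Cfap53, which lines the inside of the doublets, was lower by a log2 fold change of -0.30 ± 0.05 (SE, adjusted p = 0.0392), with 235, 223 and 213 CPM in T against 238, 258 and 258 in UC. The groups did not overlap, but T 1 and UC 1 were nearly equal. Cfap299 was lower by -0.26 ± 0.05 (adjusted p = 0.0475), with 503, 527 and 519 in T against 525, 598 and 569 in UC, where T 2 lay above UC 1. Of all genes, 2.31% passed with lower levels at any fold.

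In spermatid-like cells, 3 axoneme genes whose highest bin in VC-R was bin 11 fell in T, and these were the only members called changed. Tekt5 stood at 58.8, 40.6 and 38.2 CPM in T 1 to 3 and at 147, 180 and 152 in UC 1 to 3. The highest T library was thus below every UC library, and the log2 fold change was -2.02 ± 0.14 (SE, adjusted p = 1.99e-08). Cfap97d1 stood at 208, 179 and 172 in T and at 420, 500 and 383 in UC, a log2 fold change of -1.48 ± 0.11 (adjusted p = 2.94e-08). Cfap97d2, with far fewer UMIs, stood at 5.84, 4.60 and 4.13 in T and at 10.7, 12.6 and 14.9 in UC, a log2 fold change of -1.60 ± 0.21 (adjusted p = 1.42e-05). Of the 63 members tested, 0 were called higher and 3 lower, where 3.16% and 14.4% of all 13175 genes were, 17.5% together. Against VC-T 2 and 3 the same 3 genes were called lower, and Cfap20, at the junction of the doublet's tubules, was called higher at 1.03, with a background of 19.7%. In VC-T 2, 80.3% of the spermatid-like cells lay in clusters of few UMIs. With VC-T 1 included, no member and no gene at all was called, although 8 members and 26.4% of all genes had an unadjusted p under 0.05. In VC-T 1 itself Tekt5 was at 52.1 and Cfap97d1 at 176 CPM, close to the T libraries, against 169 and 135 for Tekt5 in VC-T 2 and 3.

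**Figure D2:**
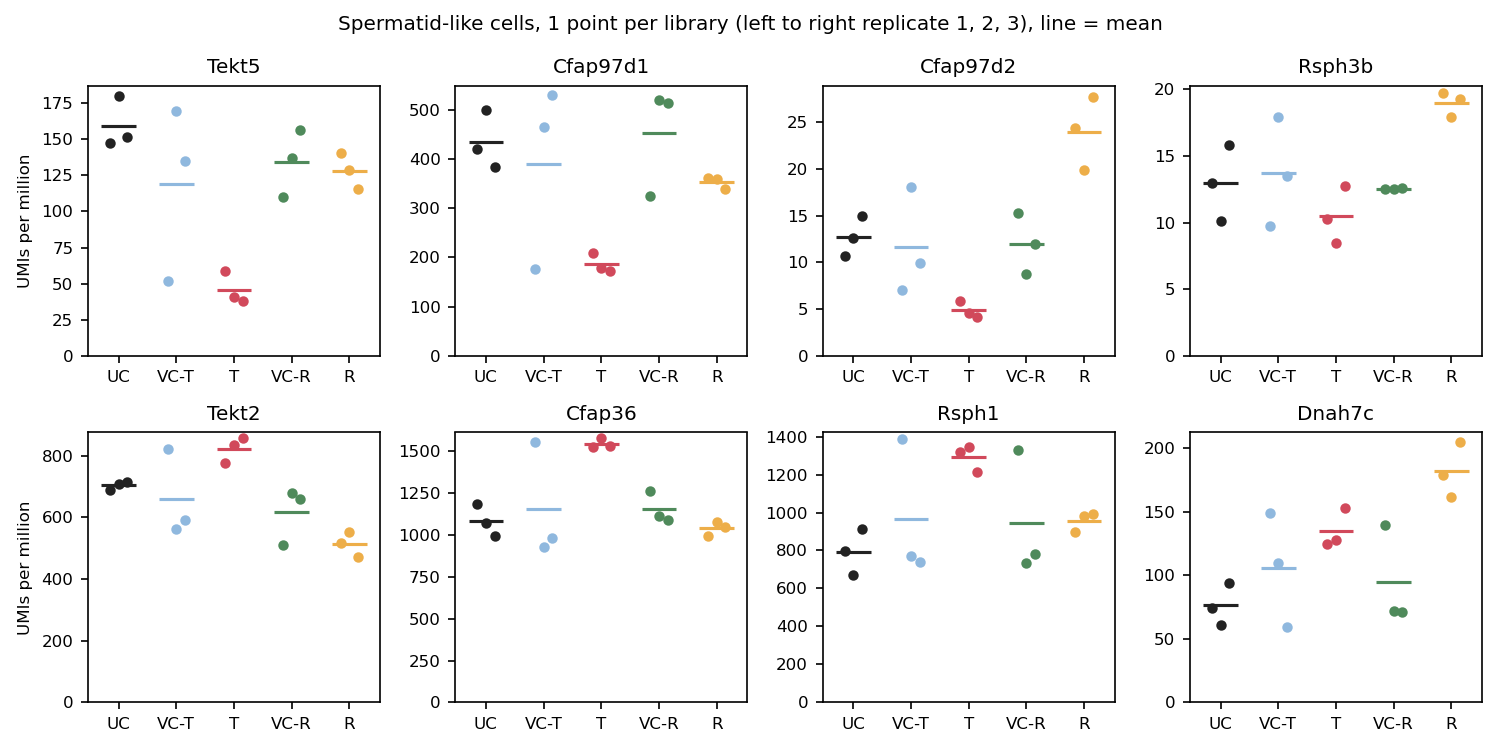
CPM in spermatid-like cells for 8 axoneme genes, 1 point per library and a line at the mean of 3, for the 5 groups. Tekt5, Cfap97d1 and Cfap97d2 are lower in all T libraries than in all UC libraries, with VC-T 1 beside T. In R, Tekt2 is below and Dnah7c above every UC library.

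The genes that fell are Tekt5 (chromosome 16, bases 10357948 to 10395490 of GRCm38, minus strand), Cfap97d1 (chromosome 11, 101984279 to 101992264, plus strand) and Cfap97d2 (chromosome 8, 13705889 to 13743414, plus strand). Their promoters, from 250 bases before to 50 after the transcription start given by RefSeq on GRCm38.p6, are printed with that of Tekt2 (chromosome 4), a tektin that peaks earlier and had a log2 fold change of -0.05 in T, so that a late and an earlier pattern can be read side by side. Each sequence runs 5′ to 3′ on the gene's strand. Capitals mark GTTGCC or its reverse complement GGCAAC, the half-site of the X-box bound by RFX factors of ciliary genes.
Tekt5, chr16:10395406-10395705, minus strand: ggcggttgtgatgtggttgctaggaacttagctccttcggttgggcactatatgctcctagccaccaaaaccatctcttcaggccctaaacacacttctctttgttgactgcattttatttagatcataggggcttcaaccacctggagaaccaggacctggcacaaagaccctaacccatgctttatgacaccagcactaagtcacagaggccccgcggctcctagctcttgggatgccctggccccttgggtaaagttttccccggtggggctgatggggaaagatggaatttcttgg
Cfap97d1, chr11:101986806-101987105, plus strand: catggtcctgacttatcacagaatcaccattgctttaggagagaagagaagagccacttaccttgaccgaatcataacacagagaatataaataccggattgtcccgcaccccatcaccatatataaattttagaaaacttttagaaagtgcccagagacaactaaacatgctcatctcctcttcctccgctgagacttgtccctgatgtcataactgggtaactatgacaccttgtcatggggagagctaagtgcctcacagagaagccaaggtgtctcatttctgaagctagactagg
Cfap97d2, chr8:13705639-13705938, plus strand: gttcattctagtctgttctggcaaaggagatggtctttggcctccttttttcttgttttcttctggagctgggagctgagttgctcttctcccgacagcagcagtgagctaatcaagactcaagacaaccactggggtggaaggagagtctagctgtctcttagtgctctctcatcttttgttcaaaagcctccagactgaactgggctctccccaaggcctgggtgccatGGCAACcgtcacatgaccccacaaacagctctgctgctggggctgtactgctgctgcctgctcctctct
Tekt2, chr4:126325639-126325938, minus strand: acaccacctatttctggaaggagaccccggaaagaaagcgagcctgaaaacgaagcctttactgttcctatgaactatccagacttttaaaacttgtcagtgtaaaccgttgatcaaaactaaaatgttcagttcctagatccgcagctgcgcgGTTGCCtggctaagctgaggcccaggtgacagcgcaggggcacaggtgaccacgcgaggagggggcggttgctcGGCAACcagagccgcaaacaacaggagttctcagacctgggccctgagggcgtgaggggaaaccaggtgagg
The promoter of Cfap97d2 held 1 such match and that of Tekt2 held 2, while those of Tekt5 and Cfap97d1 held none. The start site used for Cfap97d1 lies 2777 bases inside the gene's 5′ end in GENCODE vM21. Promoters were found for 53 of the 64 genes, 60 sequences in all. GTTGCC on either strand was in 35.0% of these 60 and in 12.5% of all 32851 promoters, and the full cyclic AMP response element TGACGTCA was in 1.67% and 1.79%. In all 14 letter patterns, some overlapping each other, were searched, and the 2 given here were picked after the counts were seen. By peak, 7 of 21 genes with a peak in bins 0 to 4, 10 of 28 in bins 5 to 9 and 2 of 4 in bins 10 to 19 had GTTGCC. A match is a run of letters and does not show that a factor binds there.

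T also held few of the spermatid-like cells in which the late genes peak. Of the spermatid-like cells, 7.24%, 4.0% and 4.04% lay in bins 10 to 19 in T 1 to 3, against 36.5%, 44.4% and 35.2% in UC 1 to 3 and 2.17% in VC-T 1. Within a bin, the levels of Tekt5 were close between the groups. In bin 9 its mean was 120 ± 10.2 CPM in T and 125 ± 7.79 in UC (n = 3 each), and in bin 10 it was 216 ± 33.0 in T and 200 ± 2.14 in UC. Bin 11, where Tekt5 peaks, held 63 cells in the 2 T libraries with at least 10 cells there, with 303 and 399 CPM, and 245 to 365 in UC. Cfap97d1 was likewise near equal in bin 9, at 400 ± 37.6 in T and 371 ± 69.8 in UC, and in bin 10, at 489 ± 137 and 544 ± 104. In bin 11 it reached 228 and 469 in T, from 55 UMIs, against 683 to 817 in UC. Other members were not alike within these late bins. The Dnah genes summed to 1711 CPM in T and 728 in UC in bin 10, and to 1338 and 354 in bin 11. The Cfap, Drc and Rsph sums were also higher in T in both bins. The Tekt sums were lower, at 2119 in T and 2200 in UC in bin 10 and 1374 and 1522 in bin 11.

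**Figure D3:**
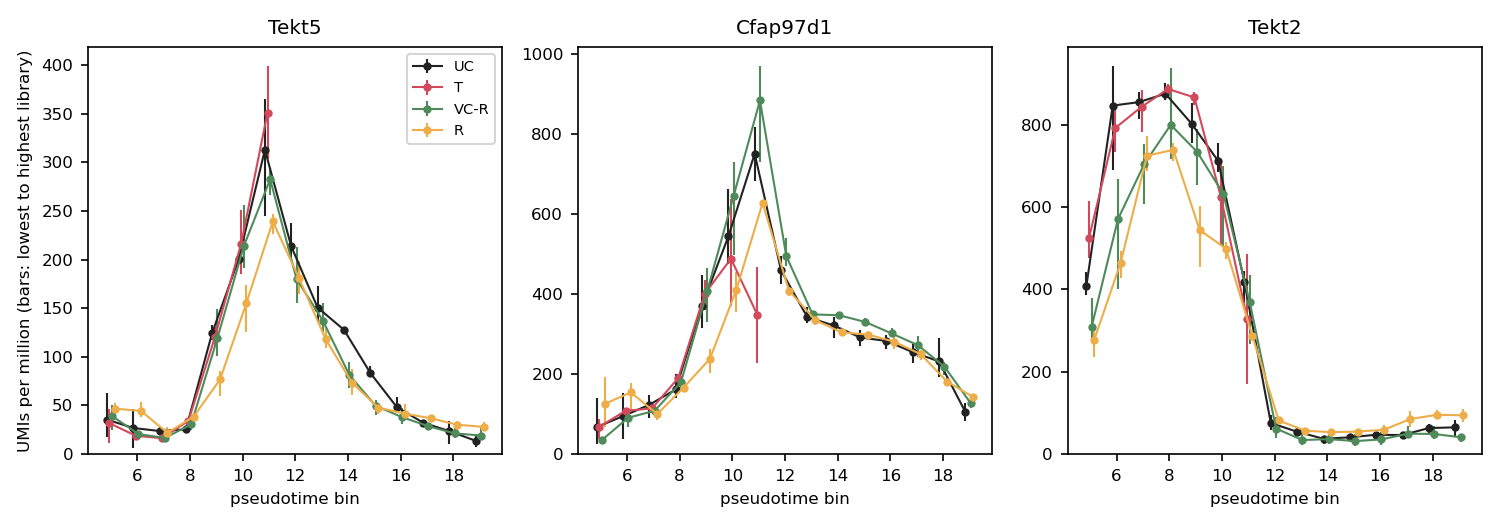
Levels of Tekt5, Cfap97d1 and Tekt2 in CPM against pseudotime bin for UC, T, VC-R and R, drawn where at least 2 libraries had 10 cells in the bin. Points are means and bars run from the lowest to the highest library. For Tekt5 and Cfap97d1, T lies near UC through bin 10, and T has no points after bin 11. R lies below UC in bins 9 and 10 for all 3 genes.

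When the same number of cells was drawn from each pseudotime bin in every T and UC library, 316 spermatid-like cells per library remained and no member was called changed. The background then was 2.32% of all genes tested. Tekt5 had a log2 fold change of -0.18 (adjusted p = 0.42) and Cfap97d1 of -0.06 (adjusted p = 0.75), and Cfap97d2 had too few counts to be tested. All 60 members tested had log2 fold changes within 0.5 of 0, and 2 passed the p threshold at any fold, both lower, where 6.88% of all genes were lower: Tekt3 at -0.29 and Rsph9, another spoke head protein, at -0.23. The matched sums held far fewer cells, so a small difference would be harder to detect in them. Bin 11 held 70 cells of T against 532 of UC, so few matched cells came from the bin where Tekt5 and Cfap97d1 peak. The matched sums therefore cannot decide whether a difference was confined to that bin.

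Genes that peak earlier were more often higher than lower in T before matching. At an adjusted p under 0.05 and any fold, 23 members were higher and 8 lower in T against UC in spermatid-like cells, 36.5% and 12.7% of those tested, where 23.3% and 27.6% of all genes were. Ordered by where they peak in VC-R, libraries that do not enter this contrast, the 27 tested genes of bins 0 to 4 had a median log2 fold change of 0.26, with 13 higher and 1 lower. The 32 genes of bins 5 to 9 had a median of 0.09, with 10 higher and 3 lower, and all 4 of bins 10 to 19 were lower, with a median of -1.54. Over the 63 genes Spearman's rho between the peak bin and the log2 fold change was -0.51, and it was -0.17 over the 60 genes tested in matched cells. These are descriptions across genes measured in the same libraries.

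**Figure D4:**
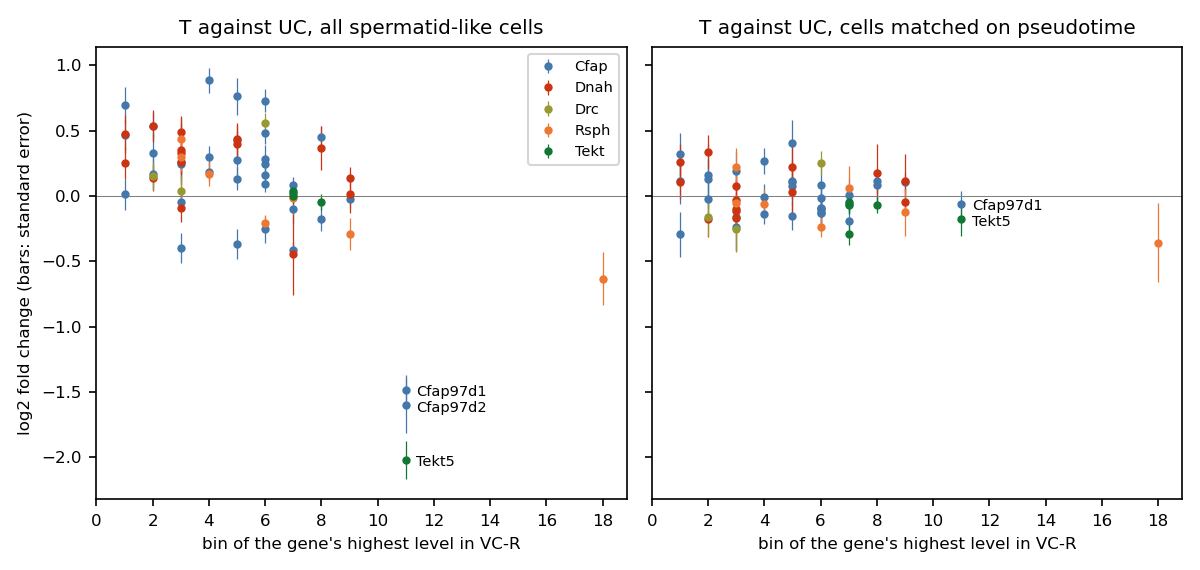
Log2 fold change of T against UC in spermatid-like cells, with its standard error, against the pseudotime bin in which each gene is highest in VC-R, in all spermatid-like cells (left, 63 genes) and in cells matched on pseudotime (right, 60 genes). On the left the genes of bin 11 lie near -1.5 to -2, and on the right all genes lie within 0.5 of 0.

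Among the higher genes were those of inner parts of the doublet. Cfap20 stood at 216, 211 and 231 CPM in T against 100, 79.8 and 114 in UC, a log2 fold change of 0.89 ± 0.10 (adjusted p = 2.17e-06). Cfap52, which lines the doublet, stood at 118, 124 and 120 against 65.4, 57.6 and 59.1, a log2 fold change of 0.73 ± 0.09 (adjusted p = 6.56e-06). Each T library was above each UC library for both. In matched cells Cfap20 was at 0.27 (adjusted p = 0.07) and Cfap52 at -0.09 (adjusted p = 0.68). Drc1 stood at 207, 213 and 204 in T and 113, 107 and 130 in UC (0.56 ± 0.08, adjusted p = 2.60e-05), and Cfap47, of the central pair, at 39.7, 48.3 and 44.8 against 19.8, 18.6 and 25.5 (0.76 ± 0.14, adjusted p = 0.000341). Their matched values were 0.25 and 0.41, with adjusted p of 0.06 and 0.13.

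By structure, 5 of the 9 inner arm heavy chains and 1 of the 5 outer arm chains were higher at any fold in T spermatid-like cells and none was lower, where 23.3% of all genes were higher and 27.6% lower. In matched cells no member passed as higher. Of the 7 central pair genes, 3 were higher, and of the 7 genes lining the microtubules, 4 were higher and Cfap126 was lower at -0.41. Among the 7 radial spoke genes tested, Rsph1 and Rsph3a were higher and Rsph9 and Rsph3b lower. The sign of Rsph9 rests on the TMM scaling, since library totals alone would turn it. Tekt1, Tekt2, Tekt3 and Tekt4 did not pass, with log2 fold changes between -0.05 and 0.04. Without TMM every T library was above every UC library for these genes, for example 606, 613 and 637 against 518, 502 and 523 CPM for Tekt1, so their equality rests on that scaling.

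Whether T moved a gene differently in the spermatocyte-like and spermatid-like cells was tested directly, with each library as a block. Cfap97d2 and Tekt5 were called, with differences of log2 fold changes of -2.07 ± 0.21 (adjusted p = 0.011) and -1.79 ± 0.33 (adjusted p = 0.033), lower in spermatid-like cells. The background was 3.21% of 14896 genes, 3.16% lower and 0.047% higher. Rsph1 (0.50), Cfap52 (0.59) and Cfap99 (-0.75) passed the p threshold at smaller differences, so that 2 members were higher and 3 lower at any size, where 0.255% and 4.06% of all genes were. In spermatocyte-like cells Tekt5 stood at 30.6, 32.9 and 29.9 CPM in T against 55.5, 33.2 and 35.4 in UC, where UC 1 was the highest. No member was called without T 2, without T 3, without UC 3, after subtraction of background RNA or in matched cells, where Tekt5 was at 0.17 and Cfap97d2 at -0.80 and the background was 1.76%. One was called without T 1 and 1 without UC 2, and 4 were called without UC 1.

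The second question was whether these genes stand at control levels 6 wk after the last dose. In spermatocyte-like cells of R against UC, no member of 63 tested and none of all 13102 genes (0.0%) was called changed, in edgeR and in DESeq2, with 9 members, 14.3% against 8.03% of all genes, at an unadjusted p under 0.05. The summed level was 17579 ± 597 in R and 17304 ± 1240 in UC. Dnah8 stood at 3457, 2975 and 2962 in R and Rsph1 at 3591, 3514 and 3452, the latter with a log2 fold change of -0.18.

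In spermatid-like cells of R, Cfap97d1, Tekt5 and Cfap97d2 stood above their levels in T. Cfap97d1 stood at 362, 360 and 339 CPM and Tekt5 at 141, 129 and 115 in R, each above every T library (R and T were not tested against each other), while UC was at 420, 500 and 383 and at 147, 180 and 152. Both were lower than in UC at any fold, at -0.51 ± 0.09 (adjusted p = 9.55e-05) and -0.53 ± 0.10 (adjusted p = 0.000113). Their values in matched cells were larger, at -0.80 and -0.86. Without 4 clusters of few UMIs, described further on, they were smaller, at -0.27 (adjusted p = 0.025) and -0.35 (adjusted p = 0.0103). In bin 9 Tekt5 stood at 76.9 ± 14.6 in R and 125 ± 7.79 in UC. Cfap97d2 was higher, at 24.4, 19.8 and 27.7 against 10.7, 12.6 and 14.9 (0.69 ± 0.16, adjusted p = 0.000781), and its matched value was 0.29 (adjusted p = 0.30). Without the clusters of few UMIs its direction turned, to -0.11 (adjusted p = 0.75). Of the spermatid-like cells of R 1 to 3, 55.0%, 48.5% and 44.2% lay in bins 10 to 19.

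One member of 63 was called changed in R against UC in spermatid-like cells, where 6.83% of 14778 genes were, 6.72% higher and 0.108% lower. Dnah7c stood at 179, 162 and 205 CPM in R and at 74.2, 60.7 and 94.0 in UC, a log2 fold change of 1.04 ± 0.11 (adjusted p = 3.95e-08). Every R library was above every UC library, but VC-R 1 was at 139 and VC-R 2 and 3 at 72.3 and 71.3. The call stood close to the fold threshold: it was lost against VC-R (0.75, background 3.04%), in DESeq2 (0.98), and without R 3 or UC 2, while 3 members were called without R 2 and 7 without UC 3, all higher. The share of all genes called without a library is not shown, so these counts are not results about the members. In cells matched on pseudotime Dnah7c (1.03) and Cfap54 (1.06) were called, with a background of 4.77%.

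At any fold, 20 members were higher and 16 lower in R, 31.7% and 25.4% of those tested, where 22.0% and 19.5% of all genes were. Of the 20 higher members, 11 were Dnah and 9 Cfap genes. Of the 9 inner arm heavy chains, 7 were higher, among them Dnah6 at 0.91, Dnah7b at 0.84 and Dnah2 at 0.76, and Dnah1 was lower at -0.29. Of the 5 outer arm chains, Dnah8 (0.47), Dnah11 (0.94) and Dnah17 (0.36) were higher and none lower. Cfap54 of the central pair was at 0.96 and Cfap61, of the calmodulin and spoke complex, at 0.73.

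All 5 tektins were lower in R. Tekt2 stood at 518, 551 and 470 CPM in R against 689, 708 and 713 in UC (-0.66 ± 0.08, adjusted p = 3.88e-07), and Tekt1 at 413, 437 and 387 against 518, 502 and 523 (-0.53 ± 0.08, adjusted p = 7.47e-06). No R library of either gene reached the lowest UC library. Against VC-R the changes were -0.50 (adjusted p = 0.06) and -0.47 (adjusted p = 0.04). Cfap45 and Cfap126, both inside the doublet, were lower at -0.52 and -0.53.

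Across the 63 members, the log2 fold change of R against UC was correlated with the length of the gene, with Spearman's rho of 0.62 in spermatid-like, 0.60 in spermatocyte-like and 0.16 (61 genes) in spermatozoa-like cells. In matched cells rho was 0.59 in spermatid-like cells and 0.25 (57 genes) in spermatocyte-like cells. With the peak bin in VC-R, rho in spermatid-like cells was -0.40, and -0.52 in matched cells. For T against UC, rho with the length of the gene was 0.31 in spermatid-like cells. Tekt2, the shortest at 3568 bases, was lowest but for Cfap410, and Dnah7c, with 381885 bases, was highest. Spermatid-like cells of R also held fewer UMIs, with medians of 1491, 1636 and 1997 per cell against 4305, 5508 and 3900 in UC. In R, 77.3% of them lay in 4 clusters whose median UMIs were under 0.6 of their libraries' medians, against 20.4% in UC, 15.6% in VC-R and 7.35% in T. In VC-T 2 the share was 80.3%. Without those clusters, 18 members were higher and 10 lower at any fold, 28.6% and 15.9%, where 6.08% and 7.48% of all genes were. None was called, against 0.808% of all genes, and Dnah7c was at 0.54 and Tekt2 at -0.35. Spearman's correlation was then 0.50 with length and -0.60 with the peak bin. Gene length, exon length and peak bin vary together over these genes, and the part of UMIs per cell in the pattern was not tested further.

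**Figure D5:**
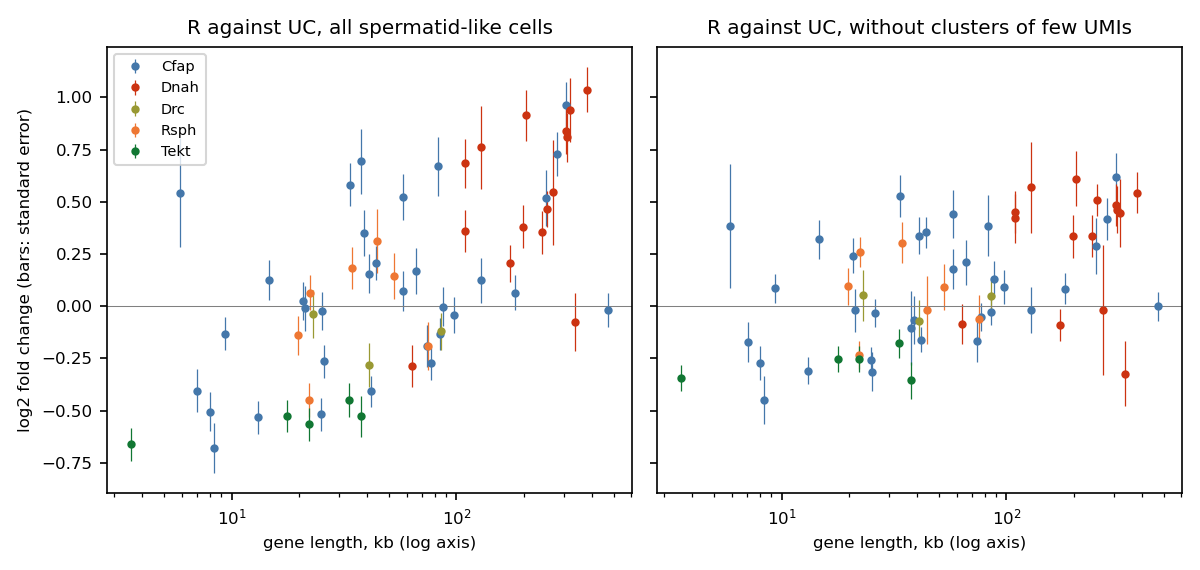
Log2 fold change of R against UC in spermatid-like cells, with its standard error, against gene length in kilobases on a log axis for 63 axoneme genes, in all spermatid-like cells (left) and without the 4 clusters of few UMIs (right). Tektins (green) lie below 0 and the longest dynein heavy chain genes (red) lie mostly above, over a wider range on the left.

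In spermatozoa-like cells none of 61 members was called in R against UC, where 1.85% of 13213 genes were, with 14 members, 23.0% against 24.2% of all genes, at an unadjusted p under 0.05 and 0 called by DESeq2. The summed level was 2692 ± 108 in R and 2496 ± 247 in UC. At any fold, 6 members were higher and 3 lower, 9.84% and 4.92% of those tested, near the 6.44% and 3.7% of all genes. Tekt5 stood at 81.4, 77.8 and 72.7 CPM in R against 91.6, 83.8 and 91.7 in UC (-0.30 ± 0.08, adjusted p = 0.013), and Cfap36 at 160, 156 and 196 against 132, 93.4 and 131 (0.44 ± 0.09, adjusted p = 0.00133). Against VC-R no member passed at any fold, nor did any gene (0.0%). Rsph3b, highest in these cells, stood at 30.1 ± 0.59 in R and 30.2 ± 3.54 in UC.

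Other genes of the axoneme and its assembly, taken as 6 lists of 54 measured genes, gave these counts in T spermatid-like cells. Of 52 tested, 25 were higher and 8 lower at any fold, where 23.3% and 27.6% of all genes were. The 2 that were called, against 17.5% of all genes, were tubulins, Tuba8 at -3.51 and Tubb3 at -5.17. In matched cells 0 were called. Tuba8 was at -0.94 there and still passed the p threshold (adjusted p = 0.000676), and Tubb3 had too few counts to be tested. At any fold 0 of the 50 tested there were higher and 5 lower, where 6.88% of all genes were lower. The 5 were the tubulins Tuba8, Tuba3a, Tuba3b and Tubb4b, and Spag17 of the central pair. Spag1, a factor that assembles dynein arms, was at 0.94, and Wdr66, a partner of the spokes, at 0.96. Their matched values were 0.26 and 0.32, with adjusted p of 0.21 and 0.28. Among the transcription factors of ciliary and haploid genes, Rfx1 (0.44), Rfx2 (0.35) and Foxj1 (0.50) were higher and Sox30 (-0.58) was lower, and none was called. None of them passed the p threshold in matched cells, where Rfx1 was at 0.41, Rfx2 at 0.31, Foxj1 at 0.17 and Sox30 at -0.02. In R spermatid-like cells 12 were higher and 21 lower of 53 tested, where 22.0% and 19.5% of all genes were. The 2 called, against 6.83% of all genes, were Dnaaf4, an arm assembly factor, at 1.24 and Tuba1a at 1.17, both higher. The level of Tuba1a was low, at 0.668 ± 0.418 CPM in UC and 1.87 ± 0.265 in R. Neither was called against VC-R or without the clusters of few UMIs, and in matched cells Dnaaf4 was called (1.52) and Tuba1a had too few counts to be tested. In spermatocyte-like cells none was called in R, where 0.0% of all genes were, and none in T before matching, where 1.35% were. In matched T and UC cells only Spag6 of the central pair was called, at 2.01 (adjusted p = 0.00931). Before matching Spag6 stood at 0.23 ± 0.86, with 41.0, 1.19 and 9.34 CPM in UC 1 to 3. At any fold 4 of the 48 tested in matched cells were higher and 4 lower, where 4.91% and 5.35% of all genes were. When T was set against VC-T 2 and 3, 1 was called, where 4.82% of all genes were.

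Over whole testes, the 64 genes made up a larger share of UMIs in T than in UC, in a comparison of levels with no test. They summed to 15371 ± 444 CPM of all kept cells in T and to 8218 ± 602 in UC, and to 8473 ± 228 in R and 8733 ± 844 in VC-R. Over all 3 VC-T libraries the sum was 10660 ± 4791, from 7880 to 16192, and the highest lay above every T library. T held 6239 spermatocyte-like cells and UC 1309. Within spermatocyte-like cells the sums of T and UC differed by less than the spread of the UC libraries, and within spermatid-like cells they were 13386 ± 130 in T and 10316 ± 475 in UC, before TMM. Spermatid-like cells of VC-T stood at 10807 ± 2564, from 9109 to 13756, again with the highest library above every T library.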

How the data were processed

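Single-cell RNA-seq of 15 testis libraries was used. The authors aligned reads to mm10 and counted UMIs per gene and barcode with Cell Ranger (3.0.0 by the methods, 7.0.0 by the matrix headers). The deposited values are raw counts, and intron counting is not given in the sources used here. Cells needed 500 genes, 1000 UMIs and under 30% mitochondrial UMIs, and the 5.4% with the highest doublet score per library were dropped. Clusters (Leiden, resolution 1.2; 2000 genes, 30 components) left out the members. A pair of libraries shared at most 29 barcodes.

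Counts were summed per library and class (at least 10 cells) and tested over all genes with edgeR 4.0.16 in R 4.3.3 (its filter, TMM, quasi-likelihood, Benjamini-Hochberg). DESeq2 1.42.0 was an alternative. On simulated data for T against UC, 190 of 200 genes changed by 2 on the log2 scale were recovered, in spermatocyte-like (11846 genes) and in spermatid-like cells (12781). Mice are the replicates. Members, lists and markers were chosen with earlier results of these data known. Named genes are members called, at most 10 of largest fold in each direction, the most abundant per family, and up to 4 examples per structural list; others, including the sperm and ciliary pairs, were chosen after their values were seen. Promoters came from RefSeq (GRCm38.p6).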

Additional observations from a re-analysis of the deposited data

Results flagged for a closer look

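The change of T against UC differed between spermatocyte-like and spermatid-like cells for 2 members, by the test of that difference. Cfap97d2 differed by -2.07 and Tekt5 by -1.79 on the log2 scale, with 3 of 3 T libraries below every UC library in spermatid-like cells. In cells matched on pseudotime the differences were -0.80 (adjusted p = 0.42) and 0.17 (adjusted p = 0.79).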

How the results depend on the processing

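Of the alternatives tried, in T spermatid-like cells those that kept the fold threshold gave 3 members called lower in every one but 2: with cells matched on pseudotime 0 were called, and with all 3 VC-T libraries as control (added after the data were seen) 0. Without a minimum fold, the counts were 31 in T spermatid-like, 2 in T spermatocyte-like, 36 in R spermatid-like and 9 in R spermatozoa-like cells and 5 for the difference between stages. Against the same-time vehicle, 1 member was called in T spermatocyte-like cells (Cfap100, 1.76), 0 in R spermatid-like cells and 6 for the difference between stages. The one call in R spermatid-like cells became 0 with DESeq2, at Leiden resolution 0.8 and without clusters of few UMIs (added later), 2 in matched cells and 3 after subtraction of background RNA. That subtraction gave 2 calls in R spermatozoa-like cells and 0 for the difference between stages, as did matching (0), where Tekt5 turned to 0.17. Leaving out 1 library gave 0 to 7 calls in R spermatid-like cells, 0 to 1 in R spermatocyte-like cells (Cfap97d1, 1.07, without UC 1), 0 to 4 for the difference between stages, and 3 to 3 in T spermatid-like cells. The family sums were highest in spermatocyte-like cells for 4 of 5 families under both alternatives. A fit with the replicate number as a block gave 3 calls in T spermatid-like cells, 1 in R spermatid-like cells and 0 in each other class. Same-numbered libraries did not all deviate together (correlations from -0.39 to 0.689). With 3 libraries per group this cannot decide whether the numbers pair mice. The cause of these shifts was not tested, except that matched sums hold fewer cells. Where no background is given with the earlier results, the share of all genes called in an alternative is not shown. Such counts depend on the fit and are not results about the members. Depth limits the scarce members: Rsph4a, with 93 UMIs in all, was tested in no main fit.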

Other observations

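In spermatogonia-like cells, where no test was planned, the 64 genes summed to 4849 ± 134 CPM in T and 2003 ± 538 in UC (n = 3 each), and to values between 1518 and 6594 in VC-T. Leydig-like cells of T, which build no flagellum, stood at 2313 (n = 2). Cfap77 was about as high in spermatogonia-like cells of UC (36.9 ± 15.1) as in spermatid-like cells (37.2 ± 3.67), and at 2.79 ± 1.58 in spermatocyte-like cells between them. Cfap69 kept 304 ± 11.1 CPM in spermatozoa-like cells of UC, close to the 323 ± 12.8 of spermatid-like cells.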
